A study of Mus musculus with 19 samples.

Results

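PU.1, encoded by Spi1, is an ETS-family transcription factor that binds purine-rich GAGGAA boxes and sets up the enhancers of macrophages, B cells and microglia. In microglia it works with IRF8, RUNX1, C/EBP, MEF2 and SALL1 proteins, and among the genes it is known to control are the receptor for CSF1, on which microglial survival depends, and many surface receptors of the innate immune system. Its own level is set in part by an enhancer that PU.1 itself binds.

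RNA of hippocampal microglia from adult mice was compared 1 week after a tamoxifen course that deletes Spi1 in 1 of 2 groups. The account covers 6 of the 19 samples of the series, 3 libraries named MIC_PU1 and 3 named MIC_CX3CR1, chosen by their column names. Both groups came from mice of 3 months that carried Cx3cr1CreER+/-, a tamoxifen-dependent Cre recombinase placed in the Cx3cr1 gene, so that 1 Cx3cr1 copy is altered in both groups and Cre can act in every Cx3cr1-expressing cell. One genotype had in addition PU.1 fl/fl, both Spi1 copies flanked by Cre target sites. Tamoxifen was injected at 50 mg/kg on 5 days in both, and cells were sorted on CD11b and CD45, markers that border macrophages, monocytes and neutrophils also carry. The number of animals behind a library is not stated, so a p-value here reflects only variation among libraries, part of which may be technical. Side by side with these stand 9 libraries of 4.5-month mice from a separately normalized table, 3 each of CK, CK-p25 and CK-p25 with PU.1 fl/fl. All had Cx3cr1CreER+/- and the same tamoxifen course. They carry a time of 6 weeks, which the ChIP samples of the series carry without a tamoxifen entry. The interval since tamoxifen is therefore not certain. CK-p25 mice produce the Cdk5 activator p25 in forebrain neurons when induced, which leads to neurodegeneration.

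The labels of the 3-month samples contradict each other. By column name and by the description that repeats it, the MIC_PU1 libraries are the deleted ones. By title and genotype the same 3 samples are controls, and the MIC_CX3CR1 samples are titled as the PU.1 conditional knockout. The source names follow the titles. Libraries are therefore named by their columns below, each difference is MIC_PU1 minus MIC_CX3CR1, and the reading by title would turn every sign. Spi1, the targeted gene, is the guide.

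Spi1 measured 261, 105 and 248 FPKM (fragments mapped, scaled for transcript length and library size) in MIC_PU1 libraries 0, 1 and 2, and 409, 338 and 337 FPKM in MIC_CX3CR1 libraries 0, 1 and 2. All 3 MIC_PU1 values lay below all 3 MIC_CX3CR1 values. The means were 205 ± 86.3 (SD, n = 3) and 362 ± 41.4, a difference of -0.92 ± 0.35 (SE) on the log2(FPKM + 1) scale with a 95% interval of -1.75 to -0.09. It did not pass the threshold in limma, a linear model fitted to all genes with a shared estimate of the spread (adjusted p = 0.0853, threshold 0.05). It passed after quantile normalization (-1.14, adjusted p = 0.0126), after scaling every library to the same FPKM sum (-0.90, adjusted p = 0.034), and without MIC_PU1 library 1 (-0.50, adjusted p = 0.0478). No other setting tried took it past the threshold. Its limma adjusted p was 0.201, 0.175 and 0.168 without MIC_CX3CR1 library 0, 1 or 2, and 0.144 with no filter on level. Spi1 RNA was thus lower by column name and higher by title. The value is per gene and not per exon, so transcripts that lack a deleted exon still count. In sorted bulk cells, fewer cells that express a gene and less RNA per cell cannot be told apart, here and in all that follows. At 4.5 months, where labels and columns do not conflict, CK-p25 PU.1 cKO minus CK-p25 gave -0.49 for Spi1 (adjusted p = 0.745).

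The CK libraries at 4.5 months, which have the Cre driver and intact Spi1, gave a further set of values to lay beside both groups, with the limit that the tables were normalized separately and the mice were older. Of the 1925 genes called higher in MIC_PU1, the CK mean on the log2 scale was nearer to MIC_CX3CR1 for 91.7%, and of the 1344 called lower for 72.5%. By list the share was 100% for 22 cell cycle genes and 88.5% for 26 homeostatic microglia genes. It was 73.3% for 30 textbook PU.1 target genes and 63.9% for 36 cytosolic ribosomal protein genes. No share was computed for genes not called, so these have no background to be read against. For P2ry12, a purinergic receptor used as a microglial marker, the CK libraries held 4300, 3670 and 3640 FPKM, the MIC_CX3CR1 libraries 4040, 3200 and 3730, and the MIC_PU1 libraries 768, 566 and 838. For Spi1 the CK libraries held 256, 230 and 251 FPKM, between the means of the 3-month groups (205 in MIC_PU1 and 362 in MIC_CX3CR1). They were nearer to the MIC_PU1 mean, the opposite of P2ry12 and of most called genes.

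The promoters of a few members show the letters at issue. Sequences are RefSeq windows of build GRCm38.p6, printed from 120 bases before to 30 bases after the annotated gene start, in lower case with the matched letters in capitals. The PU.1 box was searched as GAGGAAGT or GAGGAACT on both strands (ACTTCCTC and AGTTCCTC on the other strand), and the CHR, the cell cycle homology region through which the DREAM complex holds cell cycle genes silent in resting cells, as TTTGAA or TTCGAA on both strands. The 2 motifs do not overlap in these letters, and the CHR was added with the results known. The PU.1 box is shown in cathepsin S, the only one of the 21 textbook PU.1 targets with a window that holds it, and in the homeostatic microglial receptor Siglec-H. The CHR is shown in the first 4 members of the cell cycle list that hold it in the printed stretch.
Ctss, chr3:95526666-95526815, + strand: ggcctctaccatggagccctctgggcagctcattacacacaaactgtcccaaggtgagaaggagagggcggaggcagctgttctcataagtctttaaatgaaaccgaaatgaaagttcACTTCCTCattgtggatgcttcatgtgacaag
Siglech, chr7:55768064-55768213, + strand: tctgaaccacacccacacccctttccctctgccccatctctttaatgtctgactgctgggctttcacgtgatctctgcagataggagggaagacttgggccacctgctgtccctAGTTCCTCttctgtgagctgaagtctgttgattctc
Mki67, chr7:135716350-135716499, - strand: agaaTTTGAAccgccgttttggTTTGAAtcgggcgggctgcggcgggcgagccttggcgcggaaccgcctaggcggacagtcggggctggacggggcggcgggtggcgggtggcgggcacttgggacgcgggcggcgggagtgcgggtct
Top2a, chr11:99024160-99024309, - strand: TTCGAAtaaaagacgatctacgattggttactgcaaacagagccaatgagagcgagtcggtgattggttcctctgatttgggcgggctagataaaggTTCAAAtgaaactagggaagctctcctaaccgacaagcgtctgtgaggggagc
Ccnb2, chr9:70421525-70421674, - strand: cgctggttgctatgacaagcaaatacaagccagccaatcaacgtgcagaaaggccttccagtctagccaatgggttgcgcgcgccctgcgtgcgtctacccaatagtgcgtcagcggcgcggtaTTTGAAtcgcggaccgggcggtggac
Cdk1, chr10:69352883-69353032, - strand: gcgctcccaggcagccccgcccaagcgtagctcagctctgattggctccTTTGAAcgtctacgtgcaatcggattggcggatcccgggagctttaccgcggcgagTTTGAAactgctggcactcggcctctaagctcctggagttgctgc

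In the whole window, from 250 bases before to 50 after the start, the PU.1 box was present in 5.51% of all 27025 genes with a window and in 5.96% of the 8610 tested genes with one. It was present in 9.07% of the 1080 genes called lower in MIC_PU1 and in 4.99% of the 1562 called higher. Of the 19 homeostatic microglia genes with a window 2 held it. The CHR letters, which are short and common, were present in 21.7% of all windows, 16.9% of those of tested genes, 20.7% of those of genes called higher, 15.7% of those of genes called lower, and in 10 of the 19 cell cycle genes with a window (52.6%). These matches describe letters and not bound sites, and PU.1 acts largely through distal enhancers outside these windows.

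Across the genome, 10845 of 23951 genes reached a mean of 1 FPKM and were tested. By limma at an adjusted p under 0.05, 1925 were higher in MIC_PU1 (17.8% of those tested) and 1344 lower (12.4%). Of these, 1357 rose and 722 fell by over 2-fold. List counts below are to be read against the shares of 17.8% and 12.4%. The groups did not overlap for 48.8% of the genes tested, 2919 higher and 2371 lower in MIC_PU1, so a lack of overlap was common. The median difference of all genes was 0.03, with the 5th and 95th percentiles at -1.25 and 1.89. The balance between the directions depended on scaling. Higher calls made up 58.9% as deposited, 49.0% after centring each library on its median, 47.0% after quantile normalization and 68.3% after scaling to equal FPKM sums. The median of all genes moved from 0.03 to -0.09 at most. Of 284 called genes that belong to the lists below or are named for their size, 170 were called whichever library was left out, 114 lost the call in at least 1 such fit, and 0 changed sign.

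**Figure D1:**
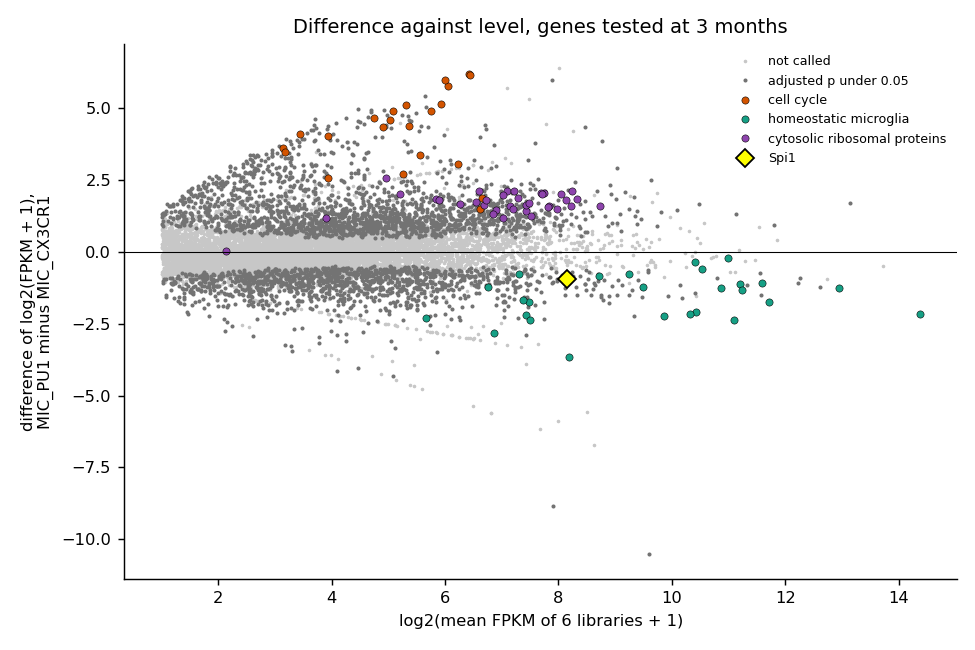
Each dot is one of the 10845 genes tested, by its mean level over the 6 libraries (x axis, log2(mean FPKM + 1)) and its difference between groups (y axis, MIC_PU1 minus MIC_CX3CR1, log2 scale). Cell cycle genes lie between 1.5 and 6.20, homeostatic microglia genes at -0.21 or below, and Spi1 at -0.92; the dots below -5 are microRNA genes listed at 0 in some libraries.

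Several libraries stood apart. MIC_PU1 library 0 held markers of neutrophils at a summed 15100 FPKM over 9 genes, against 48.3 to 347 in the other 5 libraries. S100a8 alone, a calcium-binding protein of neutrophils, stood at 4830 FPKM there and at 21.6 to 99.0 elsewhere, and the granule enzymes Mpo and Elane were listed at 24.8 and 43.6 there and at 0 in the others. The same library held monocyte markers at a summed 1090 FPKM, against 200 and 157 in the other MIC_PU1 libraries and 9.98 to 49.0 in MIC_CX3CR1. MIC_PU1 library 1 held border macrophage markers at 2010 FPKM, against 642 and 833 in the other MIC_PU1 libraries and 381 to 496 in MIC_CX3CR1. It also had the lowest Spi1 and, on the first principal component (56.6% of the variance), lay nearest to MIC_CX3CR1, at 32 against 60.2 and 69.3 for the other MIC_PU1 libraries and -60.6 to -46.4 for MIC_CX3CR1. Without MIC_PU1 library 0 the calls numbered 1279 higher and 805 lower, and without library 1 they numbered 2721 and 2010. Leaving out MIC_CX3CR1 library 0, 1 or 2 left 1314, 960 or 1097 higher and 763, 580 or 652 lower. The summed FPKM per library ran from 449784 to 622613, 10253 to 10738 genes reached 1 FPKM, and 122 genes had 0 in one library but 100 FPKM or above elsewhere. The number of reads is unknown. All 6 descriptions carry the same run name.

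**Figure D2:**
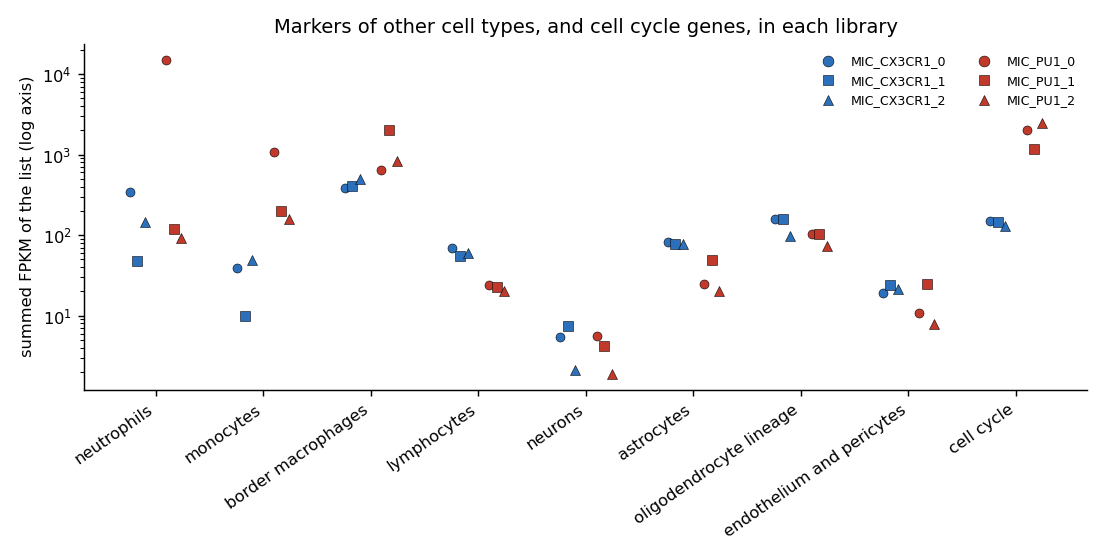
Summed FPKM (log axis) of marker lists of other cell types, and of the cell cycle list, in each of the 6 libraries. Neutrophil and monocyte markers are high in MIC_PU1 library 0, border macrophage markers in MIC_PU1 library 1, and cell cycle genes in all 3 MIC_PU1 libraries (2040, 1190 and 2450).

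Of the border macrophage markers 6 of 10 were called higher and none lower, with a median difference of 1.09. Lyve1, a hyaluronan receptor of vessel-associated macrophages, measured 35.6, 157 and 31.7 FPKM in MIC_PU1 and 10.7, 9.60 and 12.8 in MIC_CX3CR1. The count of 6 fell to 1 or 2 when any MIC_CX3CR1 library was left out, and to 2 after quantile normalization. It was 6 without MIC_PU1 library 1 (median 0.84), 7 without MIC_PU1 library 0 and 5 without MIC_PU1 library 2. Of the monocyte markers 4 of 9 rose, with a median of 2.44, or 1.33 without MIC_PU1 library 0, where 4 were again called. They were Fn1, Cd44, S100a4 and Itgal, none of which defines monocytes alone. S100a4, a calcium-binding protein of motile cells, measured 46.8, 131 and 55.2 FPKM against 0.427, 1.92 and 5.17. The defining marker Ly6c2, at 103, 15.5 and 9.92 against 2.96, 1.90 and 12.2 FPKM, overlapped between groups and was not called (adjusted p = 0.0874). None of the 9 neutrophil markers passed. Neuronal markers were near 0, with 1 of 14 tested and Thy1 listed at 0 in every library. Summed, they came to 1.89 to 5.59 FPKM in MIC_PU1 and 2.12 to 7.43 in MIC_CX3CR1. Astrocyte markers summed to 24.7, 49.3 and 20 FPKM against 81.2, 77.5 and 77.3. Of 5 tested, only Slc1a3 was called, lower whichever library was left out. Of 6 oligodendrocyte lineage markers tested only Mag was called, and of 4 of endothelium and pericytes only Pecam1, both lower. Both calls were lost without MIC_PU1 library 0 or any MIC_CX3CR1 library. Lymphocyte markers summed to 20.3 to 23.8 FPKM in MIC_PU1 and 54.5 to 69.8 in MIC_CX3CR1, most of it Cd79b, while Cd3e was listed at 0 in all 6. Of the 2 lymphocyte markers tested, Cd79b was called lower, with differences of -1.94 to -1.70 over the fits that left out 1 library. The part of these cell types in the gene groups below was not tested, beyond the values given without each library.

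The textbook PU.1 targets did not move one way. Of 30, all tested, 10 were lower in MIC_PU1 and 3 higher, with a median difference of -0.44 against 0.03 for all genes. The receptor of CSF1, Csf1r, the growth factor receptor that keeps microglia alive, measured 1450, 1370 and 1780 FPKM in MIC_PU1 and 4350, 5010 and 6220 in MIC_CX3CR1. The groups lay far apart, with a difference of -1.75 ± 0.25 (adjusted p = 0.00283). Trem2, a lipid-sensing receptor, measured 339, 199 and 503 FPKM against 1600, 1410 and 1550, and fell by 2.23 ± 0.33 (adjusted p = 0.00364). Its signalling adaptor Tyrobp, at 1720, 1240 and 2060 against 1900, 1690 and 1870 FPKM, overlapped between groups and was not called (-0.15 ± 0.25, adjusted p = 0.665). Csf3r, the receptor of granulocyte colony-stimulating factor, measured 87.3, 67.3 and 57.3 FPKM against 219, 189 and 211 (-1.55 ± 0.20, adjusted p = 0.00209). It was lower in all 3 MIC_PU1 libraries, among them library 0 with the neutrophil markers.

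Among the adhesion and pattern-recognition receptors of that list, Itgam, the CD11b chain used in the sort, measured 196, 230 and 233 FPKM against 353, 511 and 598 (-1.12, adjusted p = 0.0125). The endotoxin receptors Cd14 (-1.27, adjusted p = 0.0071) and Tlr4 (-1.11, adjusted p = 0.00713) fell as well. Emr1, which encodes the macrophage antigen F4/80, fell by 1.01 (adjusted p = 0.00995), and the Fc receptor Fcgr3 by 1.13 (adjusted p = 0.0172). Syk, the kinase below Fc receptors and Trem2, fell by 1.28 (adjusted p = 0.0356). Ctss, the lysosomal protease whose promoter is printed above, measured 4470, 3060 and 3810 FPKM against 9880, 7380 and 9180 (-1.23, adjusted p = 0.0145). Without MIC_CX3CR1 library 2 the calls of Itgam, Emr1, Fcgr3, Syk and Ctss were lost, with largest adjusted p over the left-out libraries of 0.0605, 0.0525, 0.0677, 0.119 and 0.0737. The list's lower count was 5 without MIC_CX3CR1 library 2 and up to 12 without another library.

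The targets called higher numbered 3, or 7 without MIC_PU1 library 1 and 6 after quantile normalization or with the replicate block. Msr1, a scavenger receptor, measured 47.6, 71.2 and 81.1 FPKM in MIC_PU1 and 17.2, 12.4 and 14.4 in MIC_CX3CR1 (2.09 ± 0.24, adjusted p = 0.00131). Cybb, the catalytic subunit of the phagocyte NADPH oxidase, measured 109, 54.1 and 74.0 against 20.2, 12 and 29 (1.93 ± 0.36, adjusted p = 0.00835). Tlr2, a receptor of bacterial lipoproteins, measured 211, 167 and 458 against 109, 95.2 and 119 (1.23, adjusted p = 0.0393), a call that was lost without MIC_PU1 library 0 and without any one MIC_CX3CR1 library (adjusted p up to 0.127). The 17 members not called ran from -0.71 for Fcgr1 to 1.13 for Il1b. Lysozyme, Lyz2, at 3550, 1220 and 1450 FPKM against 1000, 666 and 1160, was highest in MIC_PU1 library 0 and was not called (adjusted p = 0.116). At 4.5 months the same 30 genes had a median of -0.08 in CK-p25 PU.1 cKO minus CK-p25, where none of the 10894 genes tested was called by limma (0%) and 671 had an unadjusted p under 0.05.

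**Figure D3:**
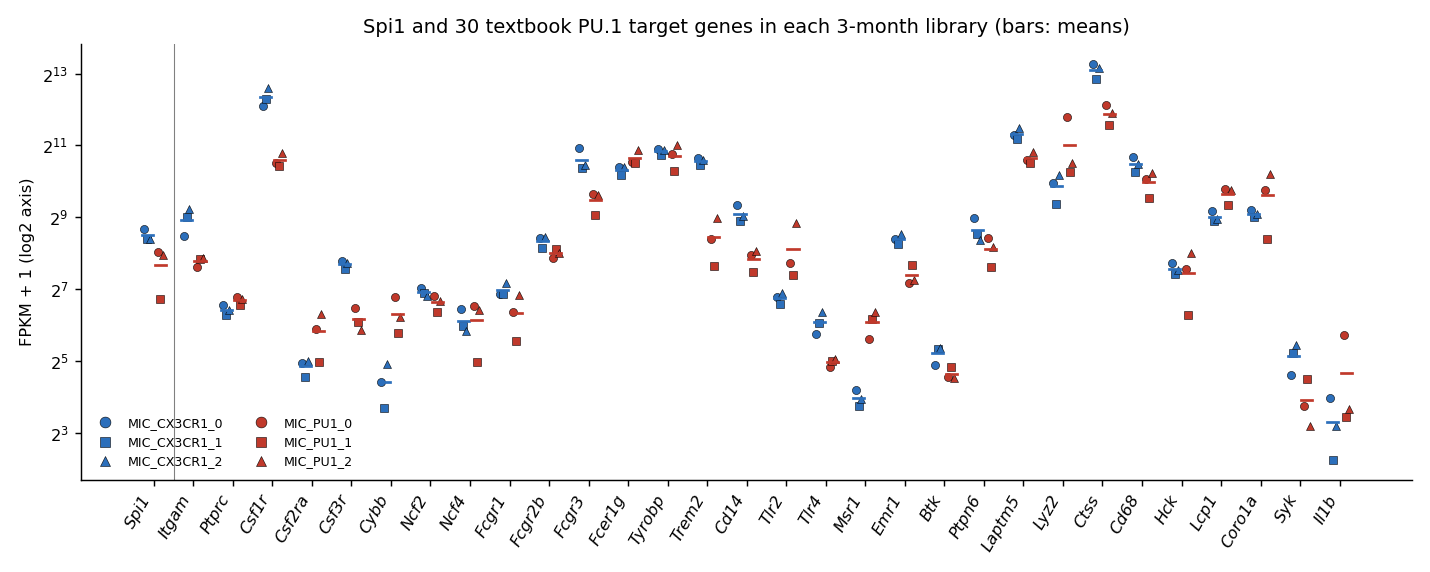
FPKM + 1 (log2 axis) of Spi1 and of the 30 textbook PU.1 target genes in each library, MIC_CX3CR1 in blue and MIC_PU1 in red, with bars at the group means. Csf1r, Csf3r and Trem2 are lower in all 3 MIC_PU1 libraries, Cybb and Msr1 are higher, and Tyrobp overlaps.

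Members of the ETS family, with Spi1 counted among them, were lower or not called. Of 14 tested, 4 were lower and none higher, with a median of -0.34, and 2 were lower without MIC_CX3CR1 library 1. Etv5, a growth factor-induced member, measured 26.1, 42.3 and 39.8 FPKM against 86.3, 102 and 122 (-1.51 ± 0.24, adjusted p = 0.00421). Fli1, a regulator of blood and endothelial cells, measured 40.4, 40.7 and 30.5 against 81.8, 81.3 and 88.9 (-1.16 ± 0.18, adjusted p = 0.00372). Ets1 fell by 1.28 (adjusted p = 0.0115) and Elf2 by 0.59 (adjusted p = 0.0325). Both calls were lost when a library was left out, Ets1 without MIC_CX3CR1 library 1 (adjusted p = 0.0504) and Elf2 without all but MIC_PU1 library 1 (up to 0.141). The close paralogs of PU.1 were scarce. Spib was at 0.363 FPKM or below and Spic at 1.18 or below in every library, and neither was tested.

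Of 26 tested partners and other myeloid transcription factors, 8 were lower and 3 higher (median -0.43). The lower count was 13 without MIC_PU1 library 1 and 5 without MIC_CX3CR1 library 1 or 2, and the higher count 1 without any one MIC_CX3CR1 library or after median centring. Irf8, the partner that binds composite sites with PU.1, measured 385, 336 and 356 FPKM against 375, 292 and 302, which overlapped, and was not called (0.16 ± 0.18, adjusted p = 0.528). Runx1, an upstream regulator of Spi1, overlapped too (adjusted p = 0.36). Sall1, which marks microglia apart from other macrophages, measured 12.5, 23.8 and 12.9 FPKM against 58.7, 91.7 and 98.8 and fell by 2.29 ± 0.30 (adjusted p = 0.00234). Cebpa (-1.72), Lyl1 (-1.30), Mef2a (-1.23), Ikzf1 (-1.05), Maf (-0.89) and Irf5 (-0.86) were also called lower, of which Ikzf1, Maf and Irf5 lost the call without MIC_CX3CR1 library 1 or 2 (adjusted p up to 0.054, 0.132 and 0.0989). The largest rise of the list was that of Bhlhe40, a repressor of macrophage metabolism and lipid genes, at 9.01, 5.28 and 14.6 against 0.609, 0.352 and 0.921 FPKM (2.62 ± 0.35, adjusted p = 0.0024).

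The clearest change by size was in the cell cycle. All 22 cell cycle genes were tested and all 22 were called higher in MIC_PU1, with a median difference of 4.37. The count was 22 in each alternative run here, among them those without MIC_PU1 library 0 or 1. Birc5, which encodes survivin of the mitotic passenger complex, measured 181, 99.3 and 223 FPKM in MIC_PU1 and 1.32, 1.65 and 0.663 in MIC_CX3CR1. That was a 139-fold ratio of the group means and a difference of 6.20 ± 0.33 (adjusted p = 9.36e-05). Top2a, the DNA topoisomerase of dividing cells, measured 57.6, 47.4 and 47.5 against 1.06, 1.09 and 0.891 FPKM (4.68 ± 0.17, adjusted p = 3.58e-05). Mki67, the proliferation antigen Ki-67, measured 19.5, 20.9 and 6.95 against 0.256, 0.495 and 0.362 (3.48 ± 0.40, adjusted p = 0.00126). It was lowest in MIC_PU1 library 2, where most other members were highest.

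Genes of each phase were included. For DNA synthesis, Rrm2, the ribonucleotide reductase subunit made in S phase, measured 192, 80.9 and 240 FPKM against 1.34, 1.04 and 1.16 (6.16 ± 0.38). The helicase subunit Mcm3 had the smallest difference, at 146, 84.2 and 206 against 48.5, 48.9 and 45.2 FPKM (1.5 ± 0.31, adjusted p = 0.0117). Ccne1 and Ccne2, the G1/S cyclins, rose by 4.04 and 3.62. The mitotic cyclin Ccnb2 measured 145, 79.0 and 151 against 0.946, 1.36 and 0.477 FPKM (6.00 ± 0.30, adjusted p = 8.1e-05), Ccnb1 rose by 5.80, and their kinase Cdk1 by 4.35. In 21 of the 22 genes MIC_PU1 library 1 was the lowest of its group, and it was still above every MIC_CX3CR1 library. The cell cycle genes summed to 2040, 1190 and 2450 FPKM in MIC_PU1 libraries 0, 1 and 2, against 129 to 150 in MIC_CX3CR1. Summed neutrophil markers were high in MIC_PU1 library 0 alone. Summed monocyte and border macrophage markers were above MIC_CX3CR1 in all 3 MIC_PU1 libraries. The part of such cells in the cell cycle values was not tested. In CK-p25 PU.1 cKO minus CK-p25 the 18 cell cycle members tested had a median of -0.07.

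Of 18 tested inhibitors of cyclin-dependent kinases, p53 targets and related genes, 8 were higher, none was lower and 10 were not called (median 0.66). The count was 5 without any one MIC_CX3CR1 library. Cdkn1a, the p21 inhibitor, measured 170, 124 and 128 FPKM against 30.6, 26.9 and 24.9 (2.30 ± 0.19, adjusted p = 0.000367). Cdkn2c, an inhibitor of CDK4 and CDK6, measured 44.8, 29.5 and 38.8 against 4.91, 4.91 and 4.24 (2.75 ± 0.20, adjusted p = 0.000212). Ccnd3, a D-type cyclin on that list, rose by 1.97, and the p53 target Phlda3 by 1.78. The D-type cyclins Ccnd1 and Ccnd2 were also among the 8, so the count is not of inhibitors and p53 targets alone. Ccnd1 lost its call in 5 fits without 1 library (adjusted p up to 0.161). Ccnd2 and Gadd45b each lost theirs in 4 (up to 0.15 and 0.0803). Trp53 itself, at 55.9, 49.8 and 70.1 against 54.0, 51.9 and 64.4 FPKM, was not called (0.04, adjusted p = 0.896), nor was Mdm2 (0.36, adjusted p = 0.217). Of the CSF1R survival and apoptosis genes 1 of 22 rose, the survival factor Bcl2 (0.81, adjusted p = 0.0335). Lower were 2, Csf1r and the kinase subunit Pik3cd (-1.34), or 6 without MIC_PU1 library 1. Both main counts were below the shares over all genes tested, 17.8% higher and 12.4% lower. Bcl2 lost its call without any one library but MIC_PU1 library 0 (adjusted p up to 0.117) and Pik3cd without MIC_PU1 library 0 or 2 or MIC_CX3CR1 library 1 or 2 (up to 0.082).

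Genes of resting, homeostatic microglia were lower. Of 26, all tested, 22 were lower in MIC_PU1 and none higher, and the median was -1.48. Gpr56, the adhesion receptor now named Adgrg1, measured 39.9, 52.2 and 33.1 FPKM in MIC_PU1 and 490, 518 and 601 in MIC_CX3CR1. It fell by 3.67 ± 0.21 (adjusted p = 0.000106). Crybb1, a crystallin expressed by mature microglia, measured 27.7, 37.9 and 20.5 against 207, 186 and 212 FPKM (-2.81 ± 0.24, adjusted p = 0.000398). P2ry12, whose values stand above, fell by 2.35 ± 0.24 (adjusted p = 0.00084). Tgfbr1, a TGF-beta receptor that holds microglia in the resting state, measured 44.6, 63.5 and 61.1 against 184, 327 and 397 (-2.35 ± 0.31, adjusted p = 0.00223).

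The most abundant members fell too. Cst3, the protease inhibitor cystatin C and the highest of them by FPKM, measured 8400, 8390 and 6800 against 34600, 31300 and 37500 (-2.14 ± 0.28, adjusted p = 0.00223). Cx3cr1, the locus of the Cre driver, which is altered in 1 copy in both groups, measured 783, 284 and 594 against 2190, 2040 and 2320 (-2.10 ± 0.37, adjusted p = 0.00649). Tmem119, a surface protein specific to microglia in the brain, measured 2310, 1160 and 2620 against 4700, 3660 and 3940. The groups did not overlap, but the call (adjusted p = 0.0496) was lost without MIC_PU1 library 0 and without any one MIC_CX3CR1 library (adjusted p up to 0.148). Olfml3 (-0.21), Itgb5 (-0.36), Sparc (-0.58) and P2ry6 (-0.78) were not called. The list's count was 17 without MIC_PU1 library 0, 23 without library 1, and 14 to 16 without one MIC_CX3CR1 library. The list summed to between 75800 and 88900 FPKM in MIC_CX3CR1 and to between 23900 and 30700 in MIC_PU1. In CK-p25 PU.1 cKO minus CK-p25 the median was -0.09.

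**Figure D4:**
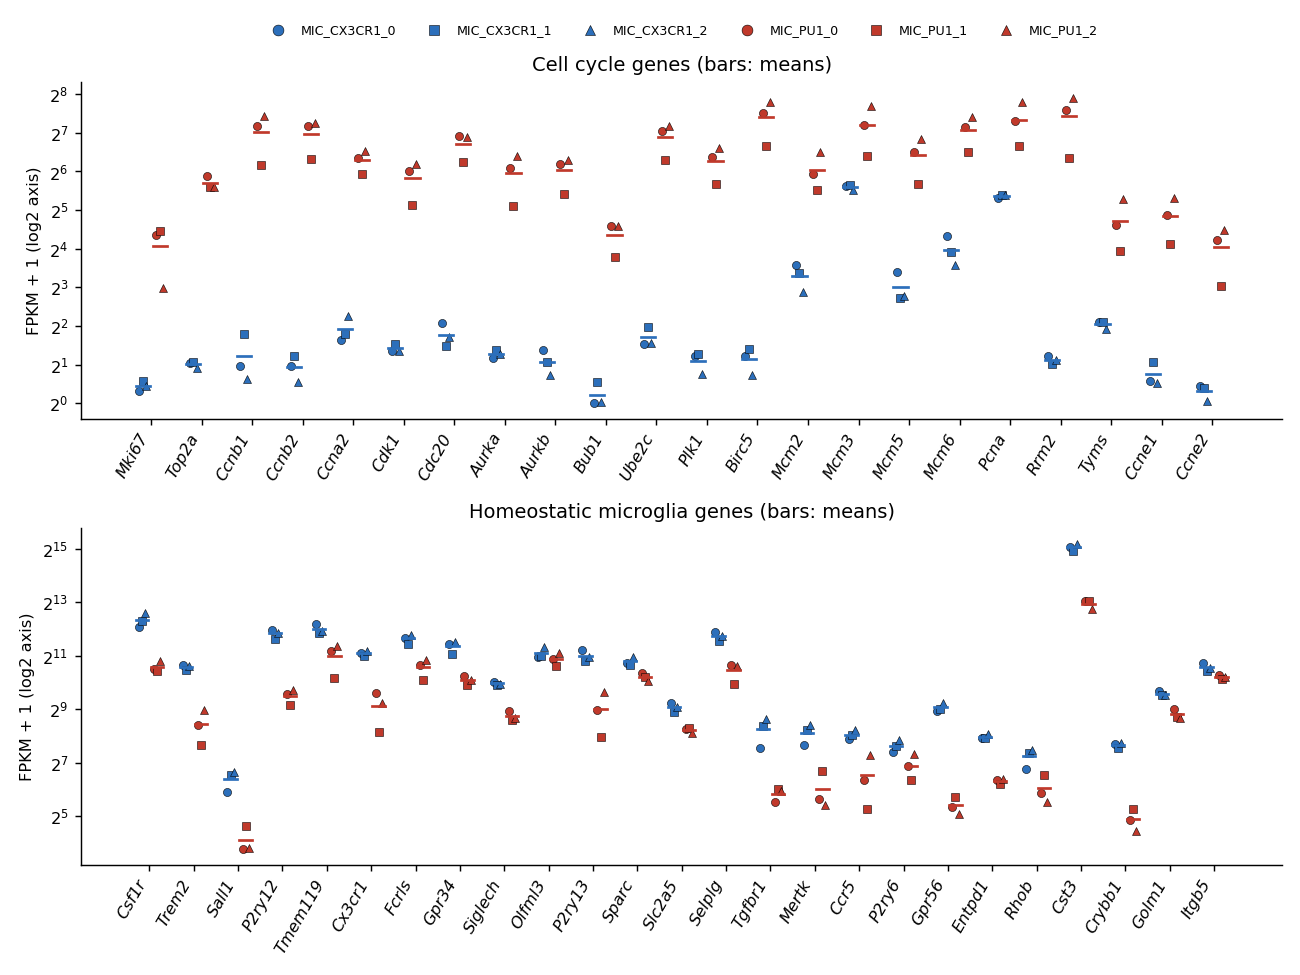
FPKM + 1 (log2 axis) of the 22 cell cycle genes (top) and 25 of the homeostatic microglia genes (bottom) in each library, with bars at the group means. No MIC_PU1 library overlaps a MIC_CX3CR1 library for any cell cycle gene, and of the homeostatic genes drawn all but Olfml3 are lower without overlap.

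Of 15 TGF-beta pathway genes 4 were lower and none higher, with a median of -0.59. The lower count was 9 without MIC_PU1 library 1 and 7 with the library number as a replicate block. Besides Tgfbr1 these were the feedback inhibitors Smad7 (-1.15, adjusted p = 0.00749), Tgif1 (-0.91, adjusted p = 0.00609) and Skil (-0.59, adjusted p = 0.0418, lost without MIC_PU1 library 0 or any MIC_CX3CR1 library, up to 0.164). The ligand Tgfb1 and the receptor Tgfbr2 overlapped between groups.

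The 12 largest falls among genes with at least 10 FPKM in the higher group, chosen by size from this comparison and so given as description, held several microglial surface proteins. Tmem204 measured 3.77, 2.33 and 1.06 FPKM against 55.5, 66.4 and 67.3, and its difference was -4.32 ± 0.30. Lag3, a receptor best known from exhausted T cells, measured 1.94, 1.34 and 1.45 against 40.9, 39.6 and 41.7 (-4.02 ± 0.17). Il7r, the interleukin-7 receptor chain, measured 0.969, 0.289 and 1.00 against 16.4, 13.8 and 16 (-3.25 ± 0.24). Gpr165 (-4.13), the sulfotransferase gene Chst8 (-3.45), the lipid flippase gene Atp8a2 (-3.35), Mycl of the MYC family (-3.27), Tppp (-3.16), the kinase gene Matk (-3.11), Fcrl1 (-3.08) and Tnfrsf17 (-2.97) were the others, with Gpr56 above. In every case the 3 CK libraries lay nearer to MIC_CX3CR1 than to MIC_PU1 in their mean log2 level. Among the 12 largest rises, 9 besides Spp1, Ch25h and Shcbp1 were genes of mitosis or DNA synthesis by textbook knowledge. Pbk, Plk1, Ube2c, Cdca3 and Fam64a rose by 5.05, 5.13, 5.16, 4.94 and 4.96, and Shcbp1, a gene induced in dividing cells, by 4.98.

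Genes of disease-associated microglia, the state seen around plaques and in degeneration, split. Of 24, all tested, 11 were higher, 1 lower and 12 not called, with a median of 0.87. Spp1, the secreted phosphoprotein osteopontin, measured 428, 467 and 490 FPKM in MIC_PU1 and 5.93, 2.62 and 14.3 in MIC_CX3CR1 (5.99 ± 0.47, adjusted p = 0.000309). It was alike in all 3 MIC_PU1 libraries. Gpnmb, a lysosomal glycoprotein, measured 9.47, 21 and 8.94 against 0.141, 0.379 and 0.106 (3.45 ± 0.34, adjusted p = 0.00074). Ank rose by 3.19, the lipase Lpl by 2.79 and the cystatin F gene Cst7 by 2.49. Trem2, the receptor needed for this state in amyloid models, was the member called lower, and it is also counted on the homeostatic list above. Apoe, at 3650, 6970 and 2520 against 3410, 2510 and 3120 FPKM, overlapped between groups and was highest in MIC_PU1 library 1 with the border macrophage markers (0.42 ± 0.39, adjusted p = 0.432). Axl and Itgax overlapped as well. Scaling and single libraries left the count between 10 and 12.

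In the CK-p25 against CK comparison, which shares no library with this one, 1922 genes were higher (17.6%) and 1490 lower (13.7%). Of the 10293 genes tested in both tables, 753 were higher in both, 43.9% of those higher at 3 months and 41.0% of those higher in CK-p25. Another 523 were lower in both, 39.3% and 35.4%. In opposite directions, 47 were higher in MIC_PU1 and lower in CK-p25, and 98 the reverse. Lag3 was of the latter kind, with -4.02 at 3 months and 2.49 in CK-p25 minus CK. Across those genes the differences had a Pearson r of 0.39, which describes genes, not replicates. The disease-associated list rose in CK-p25 with 23 of 24 members (median 3.24), against 11 at 3 months. The cell cycle list had 2 of 18 higher and 4 lower there (median -0.43), against 22 of 22 higher at 3 months. The interferon response had 25 of 25 higher in CK-p25 (median 2.88), against 5 higher and 2 lower of 25 at 3 months (median 0.04), where 5 were lower without MIC_PU1 library 1 and 3 higher without MIC_CX3CR1 library 1. The difference between these comparisons was not tested, since the tables were normalized separately.

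**Figure D5:**
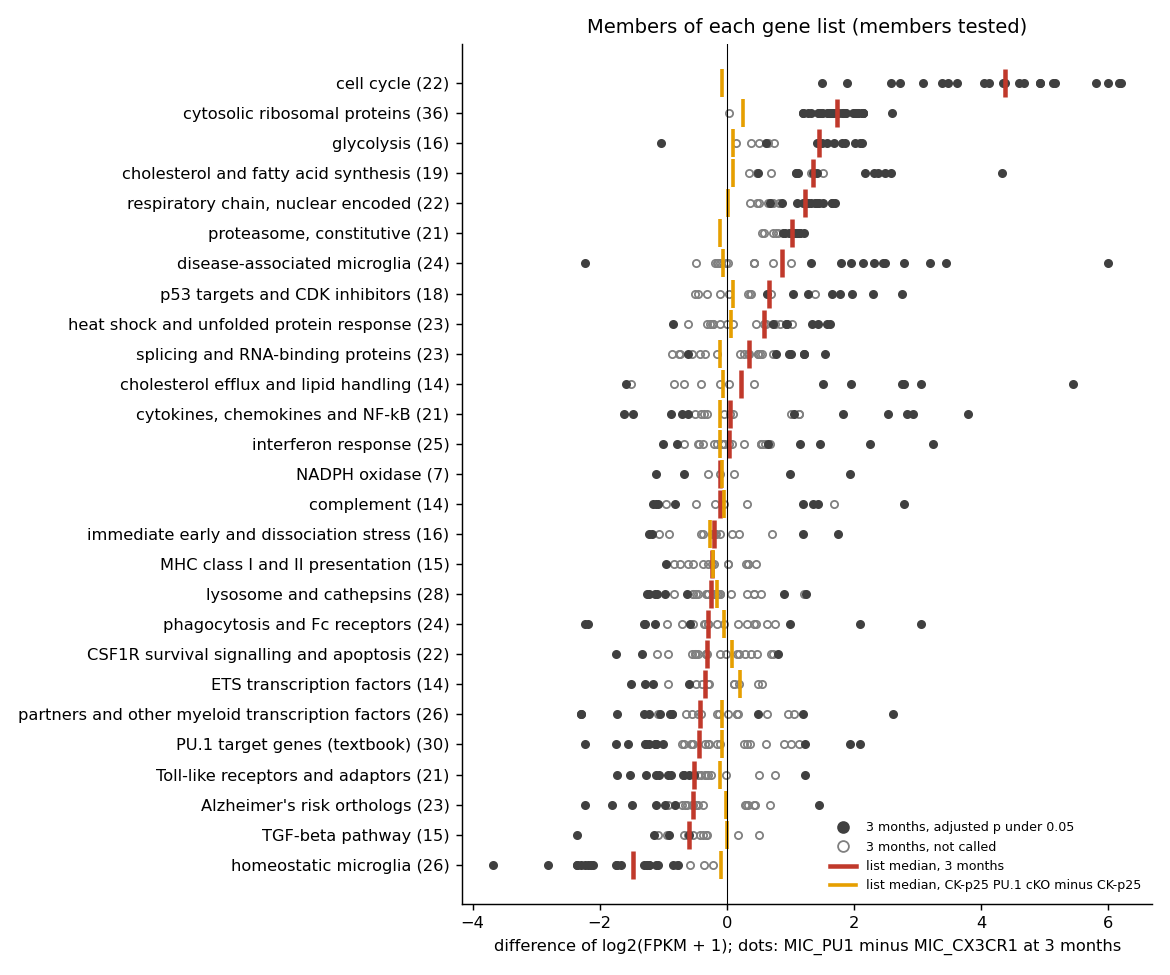
Differences of the tested members of 27 gene lists (dots, MIC_PU1 minus MIC_CX3CR1, log2 scale, filled where the adjusted p is under 0.05), with the list medians at 3 months (red) and in CK-p25 PU.1 cKO minus CK-p25 (orange). Red medians run from -1.48 for homeostatic microglia to 4.37 for cell cycle, while the orange medians stay between -0.26 and 0.25.

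Of 21 tested cytokine, chemokine and NF-kB genes, 6 were higher and 5 lower (median 0.05). The lower count was 3 without any one library but MIC_PU1 library 1, where it was 4. The monocyte attractants Ccl2 and Ccl12 measured 419, 233 and 419 against 27.5, 19.8 and 25.2 FPKM (3.79 ± 0.27, adjusted p = 0.000212), and 765, 554 and 1490 against 116, 96.9 and 123 (2.93 ± 0.35, adjusted p = 0.00161). Tnf measured 61.5, 54.1 and 40 against 7.25, 6.27 and 5.55 (2.83 ± 0.21, adjusted p = 0.000225), the chemokines Ccl3 and Ccl4 rose by 2.53 and 1.83, and the nuclear regulator Nfkbiz by 1.06. Il1a and Il1b overlapped between groups. The members called lower were the NF-kB subunit genes Nfkb1, Rela and Relb, the inhibitor Tnfaip3 and the inflammasome sensor Nlrp3, at -1.62, -0.88, -0.70, -1.48 and -0.61. The call of Nlrp3 was lost without any one library (adjusted p up to 0.15), and those of Relb and Nfkbiz without 5 of the 6 (up to 0.103 and 0.134).

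Of 21 Toll-like receptors and adaptors 11 were lower and 1 higher (median -0.51). Unc93b1, the chaperone of endosomal Toll-like receptors, measured 538, 323 and 689 against 1620, 1240 and 1430 FPKM (-1.52 ± 0.30, adjusted p = 0.0103). Tlr5 (-1.72) and Tlr3 (-0.88) fell as well, both calls lost without MIC_PU1 library 0 (adjusted p up to 0.074 and 0.0889 over the libraries left out), while Tlr1 was not called (-0.46, adjusted p = 0.143). The list's lower count was 5 without MIC_PU1 library 0 and 4 to 5 without one MIC_CX3CR1 library. In the interferon list the chemokine Cxcl10 rose most, at 28.2, 40.2 and 56.3 against 1.69, 2.91 and 6.54 FPKM (3.25 ± 0.41, adjusted p = 0.00188), with Ifi27l2a (2.25), Ifitm3 (1.46) and Rsad2 (1.15, lost without MIC_PU1 library 0 or MIC_CX3CR1 library 1, adjusted p up to 0.0634). Ifit1, Ifit2 and Ifit3, the classical interferon-induced genes named first on the list, overlapped. The list's 5 higher and 2 lower of 25 stand beside 17.8% higher and 12.4% lower of all genes tested. Of 15 genes of MHC presentation only Tapbp, a peptide-loading factor, was called (-0.95, adjusted p = 0.0111, and 0.0586 without MIC_CX3CR1 library 2).

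Complement, phagocytosis and oxidase genes went both ways. The first complement component fell in 2 of its 3 chains: C1qa measured 1530, 1110 and 2270 FPKM against 3360, 3310 and 3840 (-1.16, adjusted p = 0.0257), C1qc fell by 1.08 (adjusted p = 0.0497), and C1qb missed the threshold (-0.95, adjusted p = 0.057). Cfp, properdin of the alternative pathway, measured 120, 94.8 and 136 against 17.7, 13.8 and 16.3 (2.79 ± 0.19, adjusted p = 0.000203), and the C5a receptor C5ar1 rose by 1.35 (adjusted p = 0.0163). In all, 4 of 14 complement genes were higher and 4 lower. The higher count was 1 without MIC_PU1 library 0 or MIC_CX3CR1 library 1, and the lower count 0 without MIC_CX3CR1 library 2. Of the members named, the calls of C1qa, C1qc and C5ar1 were lost without MIC_PU1 library 0 and without MIC_CX3CR1 library 1 or 2 (adjusted p up to 0.103, 0.148 and 0.0709). Of 24 phagocytosis and Fc receptor genes 3 were higher and 6 lower, the latter 3 without MIC_CX3CR1 library 1 or 2. The higher count was below the 17.8% of all genes tested, and the lower count of 6 above the 12.4%. The scavenger receptor Cd36 measured 108, 63.5 and 197 against 12.2, 12.2 and 13 (3.06 ± 0.37, adjusted p = 0.00167). The receptor kinase Mertk, which recognizes apoptotic cells, measured 48.4, 102 and 41.2 against 203, 295 and 335 (-2.19 ± 0.36, adjusted p = 0.00529), and the engulfment factor Elmo1 fell by 1.31 (adjusted p = 0.0014). Of 7 oxidase genes Cybb and Rac2 were higher and Ncf1 and Hvcn1 lower, and of these Cybb alone kept its call without each library.

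Mouse orthologs of Alzheimer's risk genes, in which SPI1 is a human locus, had 6 of 23 members lower and 1 higher (median -0.54). The lower count was 10 without MIC_PU1 library 1, 3 and 4 without MIC_CX3CR1 libraries 1 and 2, and 11 after quantile normalization. Cd33, an inhibitory sialic acid receptor, measured 75.8, 45.8 and 80.9 against 171, 190 and 198 FPKM (-1.49 ± 0.24, adjusted p = 0.00481). Cass4 measured 7.78, 7.56 and 6.37 against 26.7, 28.3 and 27.6 (-1.80 ± 0.16, adjusted p = 0.000478), and the lipid phosphatase gene Inpp5d fell by 1.12 (adjusted p = 0.0208). Scimp, an adaptor of Toll-like receptors, was the member called higher (1.45, adjusted p = 0.0425). Without MIC_CX3CR1 library 1 or 2 the calls of Inpp5d and Scimp were lost (adjusted p up to 0.0844 and 0.132). Of lysosome and cathepsin genes 6 of 28 fell and 2 rose (median -0.25). The lower count was 1 without MIC_CX3CR1 library 0 or 2 and 3 without MIC_CX3CR1 library 1 or MIC_PU1 library 0, and the higher count 4 without MIC_PU1 library 1 and 0 without MIC_CX3CR1 library 1. Among those called higher was Gusb, beta-glucuronidase, at 584, 362 and 690 against 249, 195 and 221 (1.25, adjusted p = 0.0133, lost without MIC_CX3CR1 library 1 or 2, up to 0.0636).

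Many metabolic and biosynthetic genes rose. Of 36 cytosolic ribosomal proteins 35 were higher and none lower, with a median of 1.73, and 29 to 35 were called when single libraries were left out. Rplp0 measured 405, 316 and 631 FPKM against 137, 127 and 158 (1.62 ± 0.27, adjusted p = 0.00548). These genes have many processed pseudogenes, so their FPKM can depend on how reads were shared between copies. Summed, the list stood at 6990, 6880 and 13200 FPKM against 2230, 2480 and 3000. In CK-p25 minus CK it also rose, with 29 of 36 and a median of 1.14.

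Glycolysis had 10 of 16 higher and 1 lower (median 1.45). Gapdh measured 596, 537 and 872 FPKM against 141, 138 and 170 (2.13 ± 0.23, adjusted p = 0.0011), and pyruvate kinase Pkm 1010, 552 and 1260 against 244, 182 and 198 (2.10 ± 0.32, adjusted p = 0.00384). Ldha (2.02), Eno1 (1.86) and Pgk1 (1.81) rose too, and the first enzyme gene Hk2 was lower (-1.04, adjusted p = 0.0238, lost without MIC_PU1 library 0 or 2 or MIC_CX3CR1 library 1 or 2, up to 0.0871). Of 22 nuclear genes of the respiratory chain 15 were higher and none lower (median 1.23), as for Cox5a at 154, 116 and 262 against 48.6, 44.4 and 60, and the count ran from 7 without MIC_CX3CR1 library 1 to 21 without MIC_PU1 library 1. Of 21 proteasome genes 15 were higher and none lower (median 1.02), a count that fell to 3 without MIC_PU1 library 0, to 1 without MIC_CX3CR1 library 1 or 2, and rose to 21 without MIC_PU1 library 1. The median difference of the proteasome list stayed above 0 under every scaling tried, between 0.71 and 1.05.

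Cholesterol synthesis had 12 of 19 higher and none lower (median 1.35), 6 to 13 when single libraries were left out. Squalene epoxidase, Sqle, measured 64.8, 24.1 and 99.2 FPKM against 1.49, 2.05 and 1.70 (4.32 ± 0.46, adjusted p = 0.00104). Fdps, the farnesyl pyrophosphate synthase, measured 134, 54.9 and 245 against 21.6, 17.7 and 19.7 (2.58 ± 0.48, adjusted p = 0.00816), and the isomerase gene Idi1 rose by 2.49 (adjusted p = 0.00281). MIC_PU1 library 1 was the lowest of its group for all 3. On the side of efflux and lipid handling 6 of 14 were higher and 1 lower (median 0.22), the latter 5 without MIC_PU1 library 1. Ch25h, which makes the oxysterol 25-hydroxycholesterol, measured 69.6, 82.7 and 139 against 1.21, 0.198 and 2.78 (5.45 ± 0.44, adjusted p = 0.000361), whereas the exporters Abca1 (-1.5, adjusted p = 0.14) and Abcg1 (-0.67, adjusted p = 0.215) overlapped between groups.

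Stress genes gave a smaller picture. Of 23 heat shock and unfolded protein genes 7 were higher and 1 lower (median 0.59), with the higher count at 13 without MIC_PU1 library 1, 4 without MIC_CX3CR1 library 1, and 12 after quantile normalization or scaling to equal sums. The called members were led by the mitochondrial chaperones Hspe1 (1.63, adjusted p = 0.0114) and Hspd1 (1.57, adjusted p = 0.00794), while the inducible Hspa1a and Hspa1b overlapped. Of 16 immediate early genes, which tissue dissociation can induce, 2 were higher and 2 lower (median -0.20), with none lower without MIC_CX3CR1 library 1. Of all genes tested 17.8% were higher and 12.4% lower. Fos, at 496, 536 and 142 against 480, 295 and 223 FPKM, overlapped (adjusted p = 0.918), and Ier3 rose by 1.75 (adjusted p = 0.00178). Of 23 splicing and RNA-binding genes 6 were higher and 1 lower (median 0.35), or 11 and 3 without MIC_PU1 library 1, with Hnrnpa2b1 at 241, 197 and 279 against 106, 107 and 92.4 (1.21 ± 0.19, adjusted p = 0.00421).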

How the data were processed

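RNA of FACS-sorted hippocampal microglia was made into libraries with SMART-Seq v4 and Nextera XT kits, per the labels' protocols. These kits do not mark strand, so a gene and an antisense neighbour that overlaps it share reads. The authors deposited FPKM values in 2 tables, and TopHat, Bowtie, Cufflinks 2.0.0 and build mm9 are named in the submitters' processing notes. FPKM carries no counts, so no count model was fitted, read depth is unknown and no interval from counts is given.

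Values were taken as log2(FPKM + 1) for genes averaging 1 FPKM or above, and compared with limma 3.58.1 in R 4.3.3, with a mean-variance trend, two-sided p-values, Benjamini-Hochberg adjustment over all genes tested and a threshold of 0.05. The scale understates folds of low genes. Each table had its own fit, of 6 libraries at 3 months and of 9 at 4.5 months. On simulated data the script was checked for recovery of set changes. The members and all 35 gene lists were chosen with earlier results of these data known, and lists share genes. Named genes were Spi1, the 12 largest rises and falls (called, without overlap, at least 10 FPKM in the higher group, no small RNAs or gene models), the first 3 members and up to 5 largest calls of each list, and any PU.1 target or ETS member; other genes were chosen after their values were seen. Symbols matched RefSeq for 23816 of 23951 genes. Promoter windows came from RefSeq, GRCm38.p6. Alternatives were other pseudocounts, filters and scalings, no trend, no small RNAs, a replicate block and each library left out, and, chosen after seeing the data, leaving out genes that go from 0 in a library to 100 FPKM or above elsewhere. The 4 ChIP samples were not analysed here. Some list members that enter the counts are not reported here by name.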

Additional observations from a re-analysis of the deposited data

Results flagged for a closer look

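For 8 of the named genes the 3-month libraries moved one way without overlap and those of CK-p25 PU.1 cKO against CK-p25 moved the opposite way without overlap. The difference between the comparisons was not tested, the tables were normalized separately, and none of the 4.5-month differences was called. Ube2c, the ubiquitin-conjugating enzyme of mitotic exit, stood at 5.16 at 3 months and at -0.39 in CK-p25 PU.1 cKO minus CK-p25. Pbk, a mitotic kinase, stood at 5.05 and -0.37, and Top2a at 4.68 and -0.21. Their levels at 4.5 months were low. The CK libraries held 3.46 to 6.72 FPKM of Ube2c, 3.78 to 6.01 of Pbk and 1.57 to 2.53 of Top2a. Shcbp1 stood at 4.98 at 3 months and was under the level for testing at 4.5 months, where its CK libraries held 1.01 to 1.37 FPKM. Cdkn1a, which encodes p21, stood at 2.30 and -0.33. Ier3, an immediate early gene, stood at 1.75 and -0.67, and Gusb at 1.25 and -0.22. Skil, a repressor of SMAD signalling, was the one lower at 3 months, at -0.59 against 0.28. These 8 were 4.91% of the 163 named genes called at 3 months without overlap. As many of the 163, 8 (4.91%), lay the same way without overlap at 4.5 months. Of all 3262 genes called at 3 months without overlap, 97 (2.97%) lay the opposite way without overlap at 4.5 months and 229 (7.02%) the same way.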

How the results depend on the processing

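When single libraries were left out, 960 to 2721 genes were called higher and 580 to 2010 lower, against 1925 and 1344. Without MIC_PU1 library 0 the numbers were 1279 and 805, without MIC_CX3CR1 library 0 the lower calls were 763, and without MIC_CX3CR1 libraries 1 and 2 the calls were 960 and 580, and 1097 and 652. Quantile normalization gave 2086 lower. The Spi1 difference of -0.92 became -1.14 after quantile normalization and -0.90 after scaling to equal sums, both past the threshold, and ran from -1.15 to -0.50 with single libraries left out, passing at -0.50 without MIC_PU1 library 1. With a replicate block the calls were 2014 higher and 1367 lower and Spi1 stayed at -0.92 (adjusted p = 0.0549). Same-numbered libraries had correlations of 0.17, 0.16 and -0.05 in their deviations from the group means, and differently numbered ones -0.26 to 0.12. The main fit did not take the numbers as pairs, and whether they mark pairs was not tested. For CK-p25 PU.1 cKO minus CK-p25, where 0 genes were called in each direction, quantile normalization gave 1 higher, and leaving out single libraries gave 0 to 12 higher and 0 to 13 lower. Of 164 called genes followed through all 17 alternatives, 111 kept their call in each in which they were tested, 53 lost it in at least 1, and 0 changed direction. The cause of these shifts was not tested. With 3 libraries a group and no read counts, small differences of low genes could not be resolved.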
